A study of Mus musculus with 12 samples.

Results

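The genes described here are 45 interferon-stimulated genes, a list of genes whose transcription is raised when a cell senses interferon. All 45 were measured. For 33 of them the value came from a transcript cluster of the gene-level table that carries that symbol alone, out of 14853 genes named in this way. The other 12 had no such cluster, and their value was the median over the probesets of the exon-level table that carry that symbol alone, a table that names 22184 genes. RNA came from microglia, the resident macrophages of the brain, isolated from mice aged 3 weeks by flow cytometry with a gate on Ter119-, CD39+, CD11b+ and CD45low cells. Of the 6 samples, 3 carry the genotype label Lrrc33-/- (KO-labelled below) and 3 the label Lrrc33+/+ (WT). Lrrc33 is the older name of Nrros, whose protein holds latent TGF-beta1 on the surface of myeloid cells. The samples are labelled as biological replicates. Strain, sex, the structure of the allele and how many mice made up a sample were not stated by the labels, and the p-values reflect no more than how far these samples spread.

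Type I interferons bind a receptor made of IFNAR1 and IFNAR2. The kinases JAK1 and TYK2 then phosphorylate STAT2, which acts with IRF9 in the complex ISGF3. ISGF3 binds the interferon-stimulated response element (ISRE) in the promoters of these genes, whose products bind viral RNA, block viral entry, tag proteins with ISG15 or sense nucleic acids. Microglia respond to interferon, and among the genes it induces are IRF7 and STAT2, which feed back on the pathway.

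The letters of an ISRE core, GAAA followed by any 2 bases and GAAA again, on either strand, were searched in RefSeq promoter windows of build GRCm38.p6, which run from 250 bases before to 50 bases after a gene's start. Of the 45 genes, 34 had a window, and 19 of these (55.9%) held the letters, against 3.99% of all 27025 genes with a window. A match is a description of letters, not of binding. The 6 windows below are printed here in the direction of transcription, with the matching letters in capitals, because all hold ISRE letters while their genes behaved differently in the samples. Ifit1, Rsad2 and Ifitm3 rose most in 1 of the KO-labelled samples, Ifitm2 rose evenly, and Isg15 and Cxcl10 did not pass the test.
Ifit1, chr19:34640639-34640938, plus strand: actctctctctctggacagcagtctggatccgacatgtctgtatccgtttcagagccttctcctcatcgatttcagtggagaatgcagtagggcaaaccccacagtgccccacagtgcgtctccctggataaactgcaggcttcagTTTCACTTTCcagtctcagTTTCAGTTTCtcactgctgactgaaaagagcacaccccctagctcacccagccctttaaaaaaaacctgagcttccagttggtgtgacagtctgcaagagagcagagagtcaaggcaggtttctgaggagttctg
Rsad2, chr12:26456403-26456702, minus strand: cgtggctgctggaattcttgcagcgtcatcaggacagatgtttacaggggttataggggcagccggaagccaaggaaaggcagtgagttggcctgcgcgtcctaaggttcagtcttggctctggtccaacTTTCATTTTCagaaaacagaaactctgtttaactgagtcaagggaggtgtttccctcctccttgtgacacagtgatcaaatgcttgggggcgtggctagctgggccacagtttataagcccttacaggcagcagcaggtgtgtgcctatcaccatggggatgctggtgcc
Ifitm3, chr7:141010695-141010994, minus strand: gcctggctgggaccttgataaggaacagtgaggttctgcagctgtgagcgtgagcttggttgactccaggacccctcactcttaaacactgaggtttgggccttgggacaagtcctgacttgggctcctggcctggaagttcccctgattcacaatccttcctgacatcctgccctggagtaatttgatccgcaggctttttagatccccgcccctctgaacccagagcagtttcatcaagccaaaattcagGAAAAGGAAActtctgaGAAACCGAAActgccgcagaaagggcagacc
Ifitm2, chr7:140955912-140956211, minus strand: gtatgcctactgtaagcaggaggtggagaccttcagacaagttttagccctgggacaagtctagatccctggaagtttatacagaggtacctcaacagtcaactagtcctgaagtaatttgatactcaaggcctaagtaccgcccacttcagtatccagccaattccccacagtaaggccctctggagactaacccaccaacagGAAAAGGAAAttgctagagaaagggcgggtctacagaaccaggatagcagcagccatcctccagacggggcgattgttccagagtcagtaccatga
Isg15, chr4:156200769-156201068, minus strand: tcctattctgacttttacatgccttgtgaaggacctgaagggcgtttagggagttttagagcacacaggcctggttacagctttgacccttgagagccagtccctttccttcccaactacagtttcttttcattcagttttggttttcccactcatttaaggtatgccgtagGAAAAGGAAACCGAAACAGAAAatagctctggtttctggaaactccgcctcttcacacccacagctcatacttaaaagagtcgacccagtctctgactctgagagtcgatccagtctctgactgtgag
Cxcl10, chr5:92348840-92349139, minus strand: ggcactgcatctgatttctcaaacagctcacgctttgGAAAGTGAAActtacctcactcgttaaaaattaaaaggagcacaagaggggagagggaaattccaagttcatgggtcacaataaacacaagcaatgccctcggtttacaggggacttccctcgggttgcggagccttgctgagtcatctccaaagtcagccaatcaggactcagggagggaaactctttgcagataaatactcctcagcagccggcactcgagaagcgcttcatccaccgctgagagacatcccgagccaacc
In Isg15 the letters match 3 times in overlapping frames, which makes 1 run of capitals.

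The arrays had medians between 6.70 and 6.76 (log2) at the gene level. Nrros RNA, at 9.86, 9.89 and 9.83 in the KO-labelled samples and 9.94, 9.88 and 9.60 in WT, did not fall, with a difference of 0.05 (log2, SE 0.09, adjusted p = 0.759). Where its probes lie relative to the changed part of the gene is not known here, so the RNA gives no check of the genotype labels, on which every direction below rests. WT replicate 3 stood apart in sex-linked RNA: the Y-linked Eif2s3y was at 7.72 (log2) there and between 3.06 and 3.15 in the other 5 samples. The mean of 10 microglia markers was 10.07 to 10.10 in the KO-labelled samples and 12.08 to 12.13 in the WT samples. Of these markers 9 were lower, against 14.0% of all clusters. The mean of 8 markers of border-associated macrophages was 11.23 to 11.37 in the KO-labelled samples and 9.01 to 9.04 in the WT samples. Of these 7 were higher, against 14.4% of all clusters. Siglec1, a marker of that list that interferon also induces and that was chosen after its values were seen, was at 10.38, 10.41 and 10.999 in the KO-labelled samples and 7.82, 8.05 and 7.98 in WT. These shifts go with the same contrast as the results below and their part in them was not tested. In sorted bulk RNA, fewer cells of a type and less RNA per cell cannot be told apart.

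Most of the interferon-stimulated genes were higher in the KO-labelled samples, and in 43 of the 45 the highest KO-labelled value was that of replicate 3. Over the 45 genes, 28 were higher, 0 lower and 17 not past the threshold, which was a Benjamini-Hochberg adjusted p of 0.05 in limma's test over all features of the table. At an unadjusted p under 0.05, 33 were higher and 1 lower. At the gene level 22 of 33 were higher, where 14.4% of all clusters were higher and 28.4% changed either way. At the exon level 6 of 12 were higher, against 8.38% of all genes there (lower: 7.53%). The same shares stand beside the counts by role below. Each role holds 2 to 6 genes, so a count of 1 says little about a role. The median difference over the 45 was 1.07 (log2), while over all clusters it was -0.02. In 27 of the 33 gene-level genes every KO-labelled value lay above every WT value, a pattern found in 20.4% of all clusters, and in 8 of the 12 exon-level genes, against 16.8% of all genes. Without KO-labelled replicate 3, 23 of 33 and 6 of 12 were higher, 1 was lower, and the median was 0.74. Without WT replicate 3 the counts were 20 of 33 and 4 of 12, with 1 lower. The 12 exon-level genes gave 4 without WT replicate 2.

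**Figure D1:**
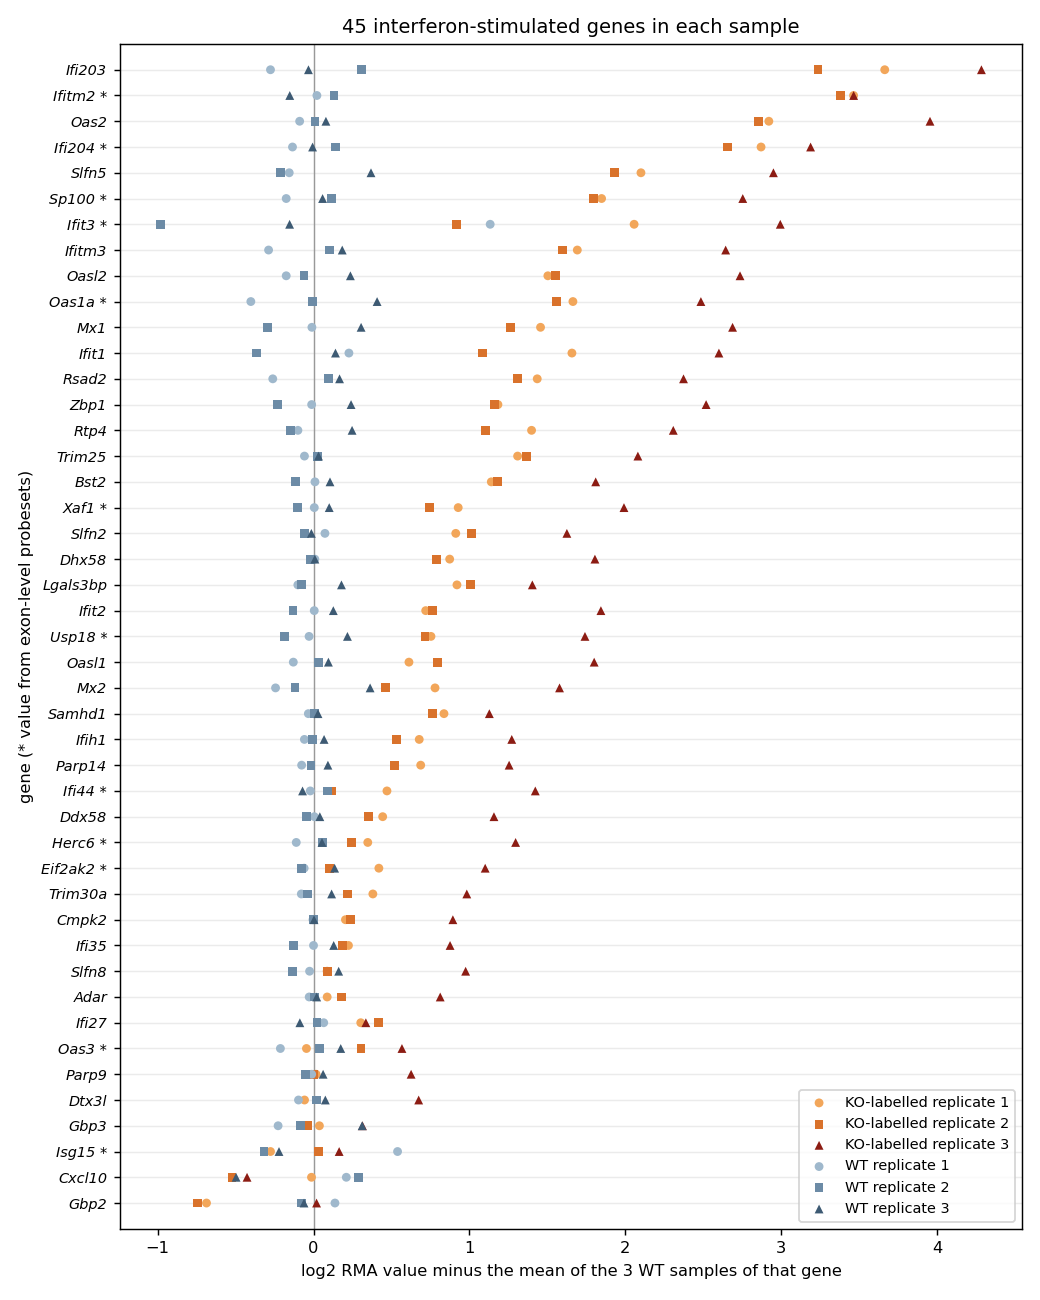
Each row is a gene, and each point is the log2 RMA value of 1 sample minus the mean of the 3 WT samples, with genes ordered by their difference between groups. KO-labelled replicate 3 (dark red triangles) lies right of the other KO-labelled samples in 43 of 45 rows, and the median over genes is 0.78, 0.76 and 1.62 in KO-labelled replicates 1 to 3.

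Sensors of nucleic acids in the cytosol were all higher in the KO-labelled samples, 6 of 6, and they hold the largest difference of the list. Ifi203, a gene of the p200 family of DNA-binding proteins, stood at 9.50, 9.07 and 10.12 (log2) in the KO-labelled samples and 5.56, 6.15 and 5.81 in the WT samples. The groups lay far apart, by 3.73 (log2, SE 0.27, adjusted p = 6.6e-05), which is 13.2-fold. Its relative Ifi204, read from 7 exon-level probesets, was at 10.79, 10.57 and 11.11 in the KO-labelled samples against 7.78, 8.06 and 7.91 in WT, a difference of 2.90 (log2, SE 0.15, adjusted p = 2e-05). For both genes every KO-labelled sample lay well above every WT sample. The p200 genes are close copies of each other, and probes may not separate them fully. Zbp1, which binds Z-form nucleic acids and can start cell death, was at 7.76, 7.73 and 9.09 in the KO-labelled samples against 6.56, 6.34 and 6.81 in WT (difference 1.62, SE 0.36, adjusted p = 0.014). Its SD among KO-labelled samples, 0.78, was the widest after that of Ifit3, with replicate 3 standing 1.35 above the mean of the other 2. The RNA helicases differed less. Dhx58 (LGP2), which tunes the signal of its relatives, rose by 1.16 (SE 0.25) and Ifih1 (MDA5), a sensor of long double-stranded RNA, by 0.83 (SE 0.18). Ddx58 (RIG-I), a sensor of RNA with a free triphosphate end, rose by 0.65 (SE 0.20, adjusted p = 0.049). That call of Ddx58 was lost without KO-labelled replicate 1 or any 1 WT replicate (adjusted p = 0.06 to 0.121) and with exon-level gene values (0.55, adjusted p = 0.19).

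The 2-5A synthetases make short oligoadenylates that switch on the RNA-cutting enzyme RNase L, and 4 of the 5 genes of this family were higher. Oas2 was at 10.48, 10.41 and 11.51 (log2) in the KO-labelled samples and 7.47, 7.57 and 7.64 in WT, so that WT samples lay close together and KO-labelled replicate 3 was 1.07 above the mean of the other KO-labelled samples. The difference was 3.24 (log2, SE 0.28, adjusted p = 0.00016), or 9.46-fold. Oas1a had 8.35, 8.25 and 9.17 in the KO-labelled samples against 6.28, 6.68 and 7.09 in WT, over 4 exon-level probesets (difference 1.90, SE 0.28, adjusted p = 0.0033). The groups did not overlap. Oasl2, a relative that binds RNA and is linked to RIG-I signalling, was at 8.84, 8.89 and 10.07 in the KO-labelled samples against 7.16, 7.27 and 7.57 in WT (difference 1.93, SE 0.32, adjusted p = 0.004). Oasl1, which in mice restrains translation of Irf7, differed by 1.07 (SE 0.29, adjusted p = 0.031), a call lost without any 1 WT replicate (adjusted p = 0.065 to 0.09) and with exon-level gene values (adjusted p = 0.055). Oas3, the longest of the family, did not pass. It was at 6.09, 6.44 and 6.71 in the KO-labelled samples and 5.93, 6.18 and 6.31 in WT, groups that overlap (difference 0.28, SE 0.17, adjusted p = 0.365).

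IFIT proteins bind viral RNA at its 5′ end and stop its translation. Ifit1, whose promoter letters are printed above, was at 6.57, 6.001 and 7.52 (log2) in the KO-labelled samples and 5.14, 4.55 and 5.06 in WT (difference 1.78, SE 0.37, adjusted p = 0.01). All KO-labelled samples were above all WT samples, with replicate 2 the lowest and replicate 3 the highest of their group. With exon-level gene values the difference was 1.16 and did not pass (adjusted p = 0.06). Ifit2 differed by 1.11 (SE 0.29, adjusted p = 0.027), and missed the threshold without any 1 WT replicate (adjusted p = 0.054 to 0.08). Ifit3 had the widest spread among KO-labelled samples of all 45 genes (SD 1.04), with 6.72, 5.58 and 7.65 there and 5.79, 3.68 and 4.51 in WT over 3 exon-level probesets. Its difference of 1.99 (log2, SE 0.63, adjusted p = 0.077) did not pass, and it passed without KO-labelled replicate 2 (2.52, adjusted p = 0.042) or WT replicate 1 (2.56, adjusted p = 0.035). Eif2ak2 (PKR), a kinase that halts translation when it binds double-stranded RNA, was at 9.02, 8.70 and 9.70 in the KO-labelled samples against 8.54, 8.52 and 8.73 in WT, with replicates 1 and 3 above the WT range and replicate 2 within it (difference 0.54, SE 0.24, adjusted p = 0.183). It did not pass.

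Among the interferon-induced GTPases only Mx1 passed, 1 of 4. Mx1, which traps viral nucleocapsids, was at 7.38, 7.19 and 8.61 (log2) in the KO-labelled samples and 5.91, 5.63 and 6.23 in WT (difference 1.80, SE 0.37, adjusted p = 0.0094), with no overlap. Mx2 differed by 0.94 (SE 0.29) and just missed the threshold (adjusted p = 0.052), which it passed with array weights (adjusted p = 0.026) and without KO-labelled replicate 2 or WT replicate 3 (0.029 and 0.046). Gbp2 and Gbp3, guanylate-binding proteins that attack the membranes around pathogens and that interferon gamma induces strongly, did not pass. Gbp2 was at 5.28, 5.22 and 5.98 in the KO-labelled samples and 6.10, 5.89 and 5.90 in WT. KO-labelled replicates 1 and 2 lay below every WT sample while replicate 3 lay among them, and the difference of -0.47 (SE 0.20) did not pass (adjusted p = 0.132). Without replicate 3 it was -0.71 and passed (adjusted p = 0.002), the 1 lower call mentioned above. Gbp3 differed by 0.10 (SE 0.15), with overlapping groups. Gbp2 was chosen for values per sample after they were seen.

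Proteins that restrict viruses at membranes were higher in 3 of 3 genes. Ifitm2, which keeps virus particles from fusing with endosomes, was at 9.11, 9.02 and 9.11 (log2) in the KO-labelled samples and 5.67, 5.77 and 5.49 in WT over 9 exon-level probesets. It differed by 3.44 (log2, SE 0.11, adjusted p = 2e-06), or 10.8-fold, and its 3 KO-labelled values lay close together (SD 0.05). Its relative Ifitm3 was at 10.24, 10.15 and 11.19 in the KO-labelled samples against 8.26, 8.65 and 8.73 in WT (difference 1.98, SE 0.28, adjusted p = 0.0018), and here replicate 3 was 1.00 above the mean of replicates 1 and 2. Both windows printed above hold ISRE letters. Bst2 (tetherin), which holds budding virus on the cell surface, rose by 1.38 (SE 0.18).

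Of the 4 enzymes of nucleotide and RNA metabolism 2 were higher. Rsad2 (viperin), which makes a chain-terminating nucleotide, was at 8.56, 8.44 and 9.50 (log2) in the KO-labelled samples and 6.87, 7.22 and 7.30 in WT (difference 1.71, SE 0.28, adjusted p = 0.0035). Samhd1, which destroys deoxynucleotides, rose by 0.91 (SE 0.10). Cmpk2, a mitochondrial nucleotide kinase, differed by 0.44 (SE 0.18, adjusted p = 0.111), and Adar, which edits adenosine in double-stranded RNA, by 0.36 (SE 0.18, adjusted p = 0.197). Neither passed, although all their KO-labelled values lay above all WT values. Without KO-labelled replicate 3 Cmpk2 passed, at 0.22 (adjusted p = 0.032).

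In the ISG15 and ubiquitin systems 2 of 5 genes were higher. Isg15 itself, the ubiquitin-like tag, was at 4.26, 4.56 and 4.70 (log2) in the KO-labelled samples and 5.07, 4.22 and 4.31 in WT (difference -0.03, SE 0.23, adjusted p = 0.96). The groups overlapped fully. Its value is the median of 3 exon-level probesets and lies above that of only 12.1% of genes in that table. Of the 3 probesets 1 was above the median of all probesets, at 7.35 in the KO-labelled samples and 7.05 in WT (difference 0.30), and it did not pass either (adjusted p = 0.494). Usp18, which removes ISG15 and blocks IFNAR2 signalling, was at 7.95, 7.91 and 8.93 in the KO-labelled samples against 7.16, 7.005 and 7.41 in WT (difference 1.07, SE 0.27, adjusted p = 0.035), a call lost without any 1 WT replicate (adjusted p = 0.06 to 0.109). Trim25, a ubiquitin ligase of the RIG-I pathway, rose by 1.58 (SE 0.20). Herc6, the ligase that attaches ISG15 in mice, was at 7.60, 7.49 and 8.55 in the KO-labelled samples against 7.14, 7.31 and 7.30 in WT. Its groups did not overlap, but the difference of 0.63 (log2, SE 0.26, adjusted p = 0.163) did not pass. Trim30a, a TRIM protein found in rodents, differed by 0.53 (SE 0.19, adjusted p = 0.081) and passed without KO-labelled replicate 2 (adjusted p = 0.04).

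Of the 3 genes of ADP-ribosylation 1 was higher. Parp9 and Dtx3l encode partners in 1 enzyme complex. Dtx3l was at 9.23, 9.31 and 9.96 (log2) in the KO-labelled samples and 9.19, 9.31 and 9.36 in WT (difference 0.21, SE 0.19, adjusted p = 0.478), and Parp9 at 8.29, 8.28 and 8.90 in the KO-labelled samples and 8.26, 8.23 and 8.34 in WT (difference 0.21, SE 0.16, adjusted p = 0.41). In both genes KO-labelled replicates 1 and 2 lay within the range of the WT samples and replicate 3 above it, values chosen after they were seen. Parp14, a relative that modifies many proteins in macrophages, was the higher one, by 0.82 (SE 0.18). Of the 45 genes, Parp9, Parp14, Dtx3l, Rtp4, Mx1 and Mx2 lie on chromosome 16, as does Nrros itself. That statement does not cover the pathway genes below, such as those of the receptors.

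Schlafen genes, which act on transfer RNA and on the growth of immune cells, were higher in 2 of 3. Slfn5 was at 8.81, 8.64 and 9.66 (log2) in the KO-labelled samples and 6.56, 6.50 and 7.08 in WT (difference 2.33, SE 0.28, adjusted p = 0.00084, 5.01-fold). Slfn2 rose by 1.18 (SE 0.18) and Slfn8 differed by 0.38 (SE 0.24, adjusted p = 0.3). Of the other interferon-induced genes 4 of 6 were higher. Sp100, a protein of nuclear bodies, was at 9.79, 9.74 and 10.70 in the KO-labelled samples against 7.77, 8.06 and 8.001 in WT over 21 exon-level probesets (difference 2.13, SE 0.25, adjusted p = 0.00097). Rtp4, a chaperone of receptors on their way to the surface, rose by 1.60 (SE 0.29). Xaf1, which promotes cell death, was at 7.998, 7.81 and 9.06 in the KO-labelled samples against 7.07, 6.96 and 7.17 in WT (difference 1.22, SE 0.30, adjusted p = 0.03), and missed the threshold without any 1 WT replicate (adjusted p = 0.071 to 0.091). Ifi44 was at 5.88, 5.52 and 6.83 in the KO-labelled samples against 5.39, 5.50 and 5.34 in WT. Replicate 2 of the KO-labelled group barely cleared the highest WT value and replicate 3 stood far above both other samples. The difference of 0.67 (log2, SE 0.30, adjusted p = 0.193) did not pass. Ifi35 differed by 0.43 (SE 0.18, adjusted p = 0.14). Ifi27 rose by 0.35 (SE 0.06, adjusted p = 0.0055), evenly over the 3 KO-labelled samples. With exon-level gene values its difference was 0.54 and missed the threshold (adjusted p = 0.055).

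Of the 2 secreted products 1 was higher. Lgals3bp, a glycoprotein that binds galectins, was higher by 1.11 (SE 0.14). Cxcl10, a chemokine that draws T cells and a common readout of interferon in the brain, was at 9.003, 8.49 and 8.59 (log2) in the KO-labelled samples and 9.23, 9.30 and 8.52 in WT, values chosen after they were seen. It was 1 of the 3 genes with a negative difference (difference -0.32, SE 0.23, adjusted p = 0.37), with Gbp2 and Isg15, and its groups overlapped through WT replicate 3. Without that sample its difference was -0.57 and passed (adjusted p = 0.043).

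The single probesets of the exon-level table come from the same arrays, so they are not independent evidence. They ran the same way along most genes. Of 651 probesets of the 45 genes, 602 had a higher mean in the KO-labelled samples. Of the 651, 217 passed limma's test as higher and 0 as lower, where 2.59% of all probesets were higher and 2.16% lower. Those shares are not a matched background. Of all 1236087 probesets 907200 carry no symbol, while 592 of the 651 lay on the bright side of the median signal. The share of all probesets with a higher mean is not given here, nor are shares for named probesets of like brightness. How far the 602 and 217 exceed a matched background was not tested. All 22 probesets of Oas2 passed, with differences of 1.54 to 3.98 (log2), and 40 of 42 of Ifi203. None of the 4 of Ifit1 or the 10 of Usp18 did so by itself, although all were positive. Of the probesets of Cxcl10, 2 of 9 were positive, and of those of Gbp2 2 of 13.

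**Figure D2:**
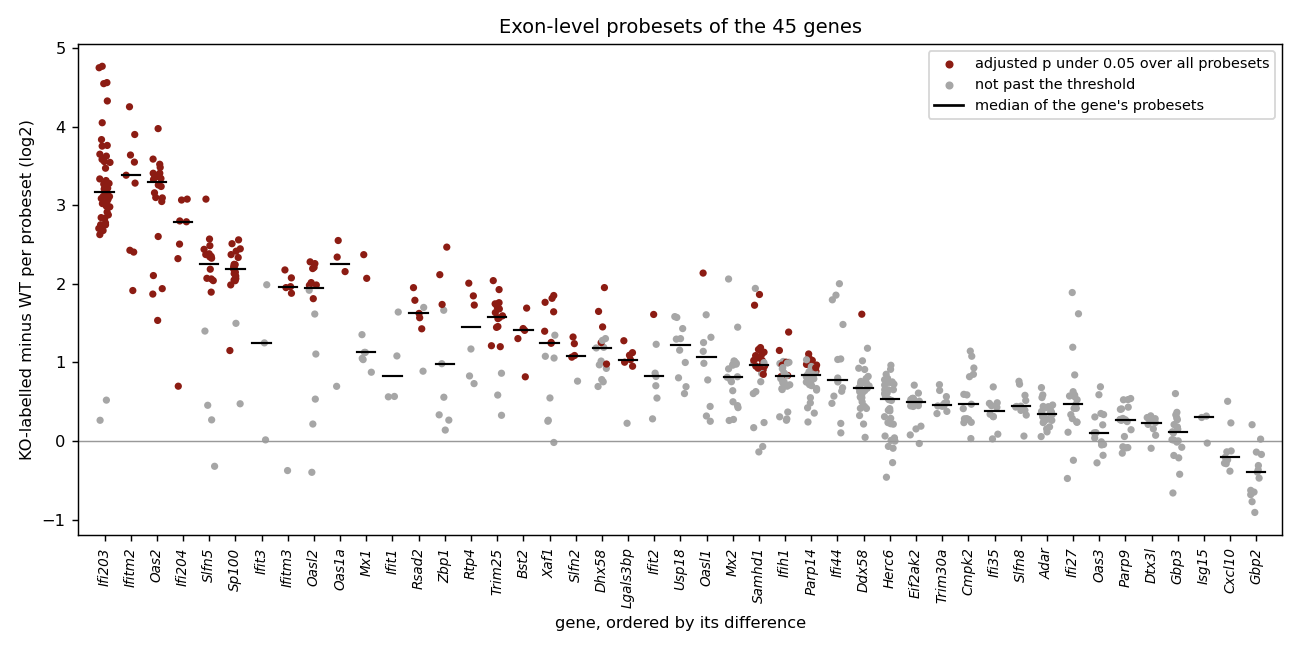
Each point is the KO-labelled minus WT difference (log2) of 1 exon-level probeset, for the 45 genes ordered by their difference. Dark points passed limma's test over all probesets and short black lines are medians: 602 of 651 points lie above 0.

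The KO-labelled samples differed among themselves in the strength of these genes. Replicate 3 was the highest KO-labelled sample in 43 of 45 genes, against 28.3% of all gene-level clusters and 35.5% of all exon-level genes. Its excess over the mean of replicates 1 and 2 had a median of 0.83 (log2) over the 45 genes, where the median over all clusters was -0.02, and it ran from -0.16 for Cxcl10 to 1.51 for Ifit3. An excess of at least 0.5 was found in 36 of 45 genes, against 1.24% of all clusters and 3.52% of all exon-level genes. Replicates 1 and 2 resembled each other, with a median distance of 0.0996 between them. The median SD was 0.51 among KO-labelled samples and 0.13 among WT samples, and it was larger in the KO-labelled group for 39 of 45 genes, against 56.2% of clusters. Within the WT group the medians of the deviations from the other WT samples were smaller, at -0.05, -0.06 and 0.14 for replicates 1 to 3. Over all clusters these medians were -0.004, -0.008 and 0.01. WT replicate 3, the sample with Y-linked RNA, thus lay somewhat above the other WT samples in these genes, by less than KO-labelled replicate 3 did in its group.

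Replicate 3 did not carry the difference alone. Replicates 1 and 2 of the KO-labelled group were both above all WT samples in 35 of the 45 genes, both below in Gbp2, and neither in the other 9, which were Oas3, Ifit3, Eif2ak2, Gbp3, Isg15, Parp9, Dtx3l, Slfn8 and Cxcl10. The share of all features with both above was not counted. At the gene level it cannot exceed the share for replicate 1 alone, given next. Taken by itself, replicate 1 was above all WT samples in 37 genes, replicate 2 in 36 and replicate 3 in 42, where 31.9%, 38.6% and 29.3% of all gene-level clusters lay above all WT samples in replicates 1, 2 and 3. The size of the excess in replicate 3 followed the difference without it only loosely. Across the 45 genes Pearson's r was 0.20 and Spearman's rho 0.39, a description over genes measured on the same arrays, in which replicates 1 and 2 enter both measures. Ifitm2 and Ifi204 had large differences with an excess below the median of the 45 genes (0.04 and 0.43). Ifi203 and Oas2, with differences as large, had an excess of 0.83, which is that median, and 1.07. Gbp2, Dtx3l and Parp9 had an excess of 0.73, 0.69 and 0.62 with no rise in the other samples. Genes with ISRE letters in their window had a median excess of 0.76 (19 genes) and those without 0.74 (15 genes), and median differences of 0.83 and 1.07.

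**Figure D3:**
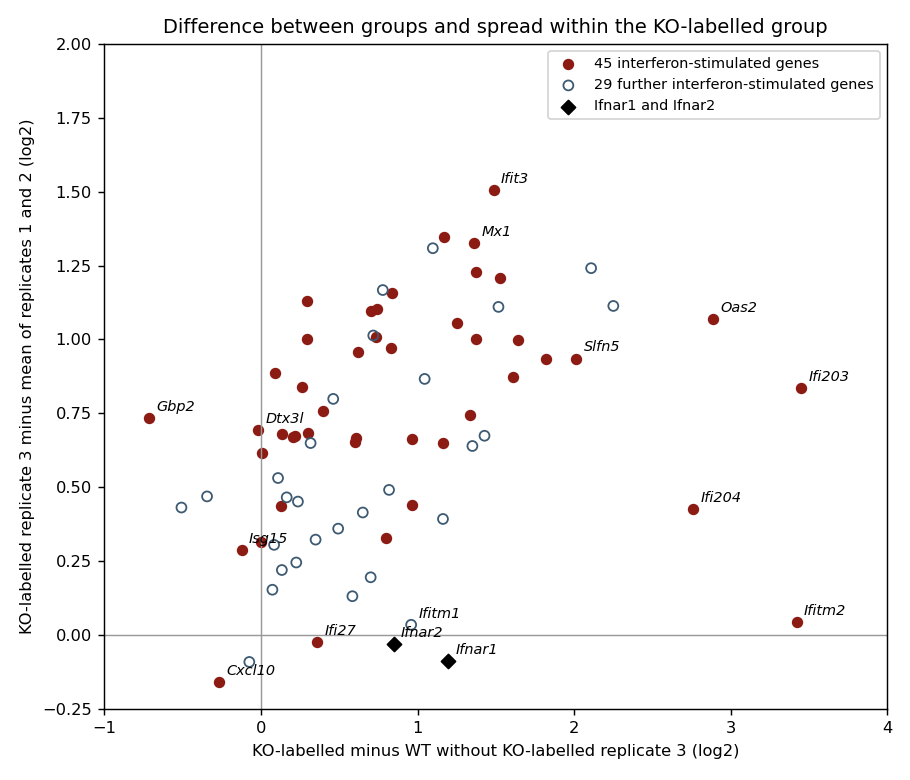
The x axis gives the KO-labelled minus WT difference without KO-labelled replicate 3, and the y axis the excess of that replicate over the mean of the other 2 (both log2). Points are the 45 genes (filled), 29 further interferon-stimulated genes (open) and the 2 receptor genes (diamonds): Ifitm2 and Ifnar1 lie near or below 0 on the y axis, Gbp2 and Dtx3l at 0.73 and 0.69.

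Markers of neutrophils moved with replicate 3 as well. All 10 were highest in replicate 3 among the KO-labelled samples, against 28.3% of all clusters. Their mean was 6.60, 6.02 and 7.23 (log2) in KO-labelled replicates 1 to 3, against 6.76, 7.89 and 7.26 in WT replicates 1 to 3. None of the 10 passed limma's test between the groups, with 0 higher and 1 lower at an unadjusted p under 0.05. WT replicate 2, with the highest neutrophil mean of all 6 samples, had a median deviation of -0.06 in the 45 genes. The mean of 6 monocyte markers was 5.36, 5.33 and 5.83 in the KO-labelled samples against 6.02, 6.21 and 6.14 in WT. Of the 6, 4 were lower, against 14.0% of all clusters. For 8 markers of plasmacytoid dendritic cells, a cell type known for making interferon, the mean was 7.15 to 7.30 in the KO-labelled samples. It was 7.68 to 7.78 in the WT samples. The list holds the microglial gene Siglech, which differed by -3.17 (log2), while the median difference over the 8 was -0.0002. Of the 8, 1 was higher and 2 were lower, against 14.4% and 14.0% of all clusters. For lymphocytes and NK cells the mean of 8 markers was 5.52 to 5.80 in the KO-labelled samples and 5.44 to 5.63 in the WT samples. The part of these cells in the results was not tested.

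Upstream of these genes the steps of the pathway did not move together. Of 12 interferon ligand genes 11 were measured, and none was called in either direction by limma's test. At an unadjusted p under 0.05 there was 1, Ifna4, a gene near the bottom of the scale (difference -0.28). Ifnb1, the first type I interferon that macrophages make, was at 5.69, 5.77 and 5.62 (log2) in the KO-labelled samples and 5.76, 5.90 and 5.67 in WT, groups that overlap (difference -0.08, SE 0.08, adjusted p = 0.501). Without WT replicate 1, 1 ligand (Ifna5) was higher, and without WT replicate 2, 1 (Ifna4) was lower. The ligand list is dim as a whole. Its mean over the 11 genes, 5 of them read at the exon level, was 5.16 to 5.24 (log2) in the 6 samples. The gene-level array medians were 6.70 to 6.76. So low a signal limits what the test could show, and the lack of calls does not show that ligand RNA was unchanged.

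Of the receptor genes, 3 of 6 were higher and 0 lower, where 14.4% of all clusters were higher and 14.0% lower. In the 3 higher genes the samples of a group lay close together. Ifnar1 was at 10.96, 10.96 and 10.87 (log2) in the KO-labelled samples and 9.77, 9.76 and 9.76 in WT (difference 1.17, SE 0.05, adjusted p = 7.6e-06). Ifnar2 was at 11.41, 11.34 and 11.35 in the KO-labelled samples and 10.55, 10.56 and 10.48 in WT (difference 0.84, SE 0.05, adjusted p = 3.3e-05). In both, the groups were well apart and KO-labelled replicate 3 was not the highest. Il10rb, a chain shared by the receptors of interferon lambda and interleukin 10, rose by 1.00 (SE 0.07).

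Among the transducers 3 of 6 were higher and 2 lower, where 14.4% of all clusters were higher and 14.0% lower. The partners of ISGF3 did show the excess in KO-labelled replicate 3. Stat2 was at 8.77, 8.74 and 9.47 (log2) in the KO-labelled samples and 8.01, 8.04 and 8.14 in WT (difference 0.93, SE 0.19, adjusted p = 0.0095), and Irf9 at 9.64, 9.66 and 10.05 in the KO-labelled samples and 9.03, 9.04 and 9.17 in WT (difference 0.71, SE 0.12, adjusted p = 0.0038). Neither pair of groups overlapped, and replicate 3 exceeded the mean of the other KO-labelled samples by 0.71 and 0.40. Stat3, which carries the signal of interleukin 6 and interleukin 10, differed by -0.84 (log2, SE 0.08, adjusted p = 0.00021). Of the other interferon regulatory factors 2 of 7 were higher and 3 lower, beside the same shares of all clusters (14.4% and 14.0%). Irf7, which drives the later wave of interferon genes and is itself interferon-induced, was at 8.05, 8.15 and 9.33 in the KO-labelled samples and 7.09, 6.99 and 7.37 in WT (difference 1.36, SE 0.33, adjusted p = 0.019). Its excess in replicate 3 was 1.23, and its call was lost without WT replicate 1 or 2 (adjusted p = 0.058 and 0.062). Irf1, a factor that interferon gamma induces, differed by -0.64 (log2, SE 0.18, adjusted p = 0.035), and Irf5, which acts below Toll-like receptors in macrophages, by -0.54 (log2, SE 0.06, adjusted p = 0.00082). Of these factors 0 were higher when WT replicate 1 or 2 was left out, and 1 when KO-labelled replicate 3 was.

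Genes of sensing above interferon and of its inhibition were lower where they changed, with 1 exception. Of 13 sensing genes 0 were higher and 5 lower, where 14.0% of all clusters were lower. Tlr3, the endosomal receptor of double-stranded RNA, differed by -1.54 (log2, SE 0.08, adjusted p = 2e-05), and Sting1, the adaptor of the cytosolic DNA sensor cGAS, by -1.41 (log2, SE 0.06, adjusted p = 8.3e-06). Of 8 inhibitors 1 was higher, Cish, and 3 were lower, where 14.4% of all clusters were higher and 14.0% lower. Socs3, which blocks signalling by the interleukin 6 receptor family, was at 7.93, 8.07 and 7.73 (log2) in the KO-labelled samples and 10.70, 10.32 and 10.17 in WT, the largest difference of that list and values chosen after they were seen (difference -2.48, SE 0.15, adjusted p = 2.7e-05). Without WT replicate 2 the lower sensing genes were 3, and Cish missed the threshold without KO-labelled replicate 2 or 3 or WT replicate 2.

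Of 15 genes that interferon gamma mainly induces, 3 were higher, 0 lower and 12 not past the threshold, with a median difference of 0.01 (log2). That share of higher genes is near the 14.4% of all clusters (exon level: 8.38%). Iigp1, a GTPase that attacks vacuoles of pathogens, had the largest difference (difference 2.19, SE 0.28, adjusted p = 0.0014), followed by Gbp6 and Gbp7 (0.69 and 0.64), both guanylate-binding proteins. The count of higher genes was 1 without KO-labelled replicate 2 or 3 or WT replicate 2, and 1 gene (Cd274, the checkpoint ligand PD-L1) was lower without WT replicate 3. A list of 30 further interferon-stimulated genes, of which 29 were measured, gave these counts: 19 were higher, 0 lower and 10 not past the threshold, with a median of 0.73. Without KO-labelled replicate 3, 18 were higher and 2 lower (Nmi and Lgals9). KO-labelled replicate 3 was the highest of its group in 28 of them, by a median of 0.47. The largest differences were in Oas1g, a close copy of Oas1a (2.62), Ifi47, an immunity-related GTPase (2.52), Ms4a4c, a membrane protein (1.89), Ifi205 of the p200 family (1.65), Ddx60, a helicase (1.56), and Ifit3b (1.53). Rnf213, a ubiquitin ligase, Epsti1, Oas1b and Ifi27l2a followed, at 1.33, 1.29, 1.17 and 1.06. Oas1g, Ifit3b and Ifi205 are near copies of listed genes and may share probe signal with them. Ifitm1, chosen after its values were seen, was the counterpart of Ifitm2 in this list, at 7.41, 7.40 and 7.44 in the KO-labelled samples and 6.50, 6.43 and 6.40 in WT. It too rose evenly (difference 0.97, SE 0.09, adjusted p = 0.00026). Its gene lies on chromosome 7, as do Ifitm2 and Ifitm3. Over all 95 measured genes of these 8 lists, 31 were higher and 13 lower, against 14.4% higher and 14.0% lower of all clusters, so that the share of lower genes is that of the background. The count of higher genes was 21 without WT replicate 2.

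**Figure D4:**
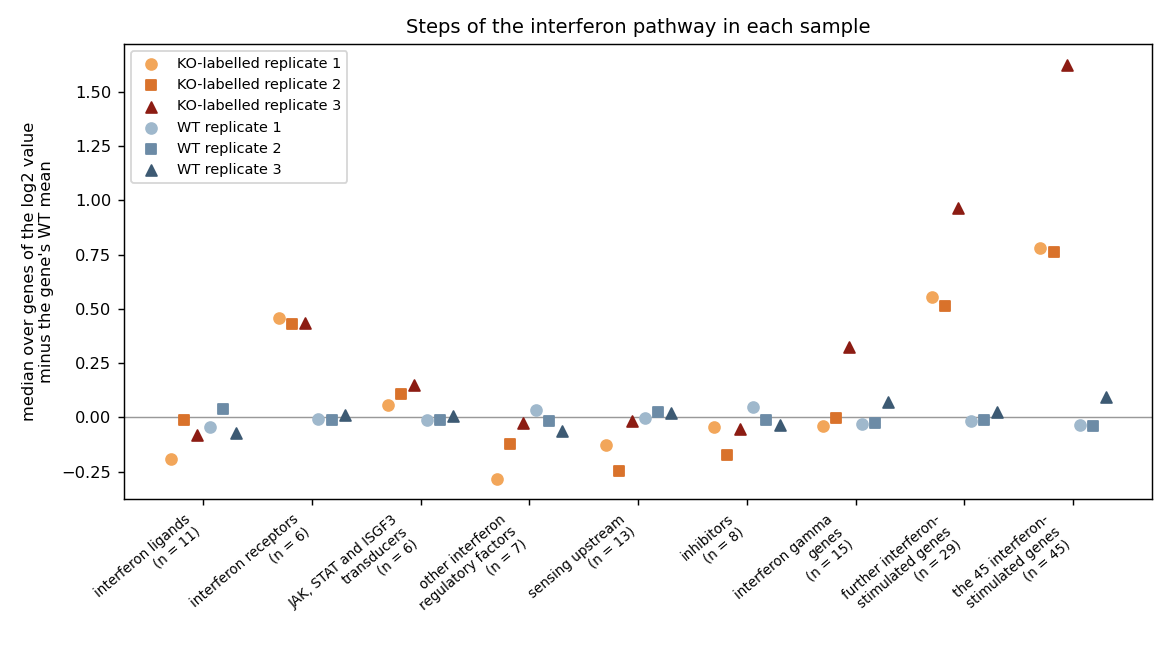
For each list of pathway genes and for the 45 genes, points give the median over genes of a sample's log2 value minus the gene's WT mean, 1 point per sample. KO-labelled replicate 3 (dark red triangle) is at 1.62 for the 45 genes and 0.97 for the further genes, above replicates 1 and 2, while for the receptors all 3 KO-labelled samples lie between 0.43 and 0.46.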

How the data were processed

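RNA of 6 samples, 3 labelled Lrrc33-/- and 3 labelled Lrrc33+/+, was measured on Affymetrix mouse exon arrays. The deposited values are log2 signals, made with RMA per the submitters' processing notes, which name oligo and limma too. RMA as a method corrects background, sets all arrays to 1 distribution and summarises probes. Gene-level and exon-level tables hold the same arrays. The genome build is not given in the sources used here. All value columns could be mapped to samples. For the same sample the 2 tables correlated at 0.517 to 0.587 over 14547 genes after centring each gene, and between samples at 0.0481 at most. The number of arrays limits the precision.

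Features were named through the array's probe annotation. Of 16755 gene-level clusters 15002 had 1 symbol, 1013 several and 740 none. Of 1236087 exon-level probesets 321091 had 1 symbol, 7796 several and 907200 none. Only features with 1 symbol were named. Where a gene had several clusters, that with the highest mean over the 6 arrays was used, and a gene with none took the median of its exon-level probesets. No filter on low values was applied.

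Groups were compared with limma 3.58.1 (lmFit and eBayes, R 4.3.3), two-sided, with Benjamini-Hochberg adjustment over all features of each table and a threshold of 0.05. The fit was tested on simulated data. Differences are KO-labelled minus WT. Alternatives were array weights, variance moderation with trend, a second quantile normalization, only the features above the median brightness, the mean of clusters, exon-level gene values, a replicate block, and each sample left out in turn. Same-numbered samples of the 2 groups did not deviate together (correlations of -0.029, -0.0071 and 0.039), so the numbers were not taken as pairs.

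The 45 genes, the pathway lists and the marker lists were chosen with earlier results of these data known. Values per sample are given for the 12 called genes with the largest difference, the 3 with the largest SD among KO-labelled samples, the 12 genes read from exon-level probesets, and Ifnar1, Ifnar2, Stat2, Irf7, Irf9, Ifnb1 and Nrros. In the pathway lists every called gene with a difference of at least 1, or else up to 3 called genes, was named. Others are said to be chosen after their values were seen. Promoters come from RefSeq (GRCm38.p6).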

Additional observations from a re-analysis of the deposited data

How the results depend on the processing

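The count of higher genes among the 33 gene-level members was 22 and ran from 19 to 24 when each sample was left out, from 18 with exon-level gene values to 24 with the replicate block over the other settings. The count of lower genes ran from 0 to 1 when each sample was left out, being 1 without KO-labelled replicate 3 (Gbp2) and 1 without WT replicate 3 (Cxcl10), and was 0 under every other setting run. Among the 12 exon-level members the count of higher genes was 6, and 4 to 7 when each sample was left out. The median difference of 1.07 ran from 0.74 to 1.23 in the same way. Of the 45 genes, 13 changed their side of the threshold under at least 1 setting and none changed direction as a called gene. The replicate numbers were not shown to pair the samples. With the replicate block 24 of 33 and 7 of 12 genes were higher, with Mx2, Ifit3 and Trim30a passing in addition (adjusted p = 0.0063, 0.03 and 0.037), and the pathway lists gave 29 higher and 11 lower in place of 31 and 13. Leaving out each sample moved those counts to 21 to 29 and 10 to 13. The causes of these changes were not tested. The gene values of Isg15, Ifna4 and Ifit3b are dim, and differences there are limited by that signal.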
